A study of Mus musculus with 6 samples.

Results

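The transcripts of 10 genes that carry calcium signals from the T cell receptor to the nucleus were followed in mouse CD8+ T cells: Itpr1 and Itpr3, Stim1 and Stim2, Orai1 and Orai2, Kcna3 and Kcnn4, and Nfatc1 and Nfatc2. The genes were listed by name for their role, though with earlier results of these data known, and all 10 were found among the 54446 genes of the quantification files. CD8+ T cells came from spleens of C57BL/6 wild-type mice 8 weeks old and were purified by removing other cells (negative selection). There were 3 groups of 2 libraries. Unstimulated cells were fresh, Control cells were stimulated for 72 h on plates coated with antibodies to CD3 and CD28, without magnets, and SMF cells received the same stimulation in a 0.3 T static magnetic field. All 3 groups shared the strain, the tissue and the purification, and none carried a transgene or a deletion. The labels do not say whether the 2 libraries of a group came from separate mice or cultures, so a p-value here measures only the spread between these libraries.

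Store-operated calcium entry is the main route by which calcium enters a lymphocyte after the T cell receptor is engaged. The receptor triggers production of inositol trisphosphate, which opens the Itpr channels of the endoplasmic reticulum. The Stim proteins sense the emptied store and open the Orai pores of the plasma membrane, while the potassium channels Kcna3 (Kv1.3) and Kcnn4 (KCa3.1) let potassium out and so keep up the electrical pull on calcium. Calcium then binds calmodulin, calmodulin switches on the phosphatase calcineurin, and calcineurin strips phosphate from NFAT transcription factors such as Nfatc1 and Nfatc2, which move into the nucleus. Mutations of ORAI1 or STIM1 are known to cause immune deficiency in people.

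The DNA just upstream of the RefSeq start is shown for 4 genes. Of these, Orai1, Kcna3 and Kcnn4 were higher and Orai2 lower in every stimulated library than in both Unstimulated ones. Stim2 was likewise higher and Itpr3 lower, but neither is shown. Shares of all genes placed in these ways are given below. Each window holds the 250 bases before the start in GRCm38.p6, 5′ to 3′ on the gene's strand. For Orai2, 57 bases that lie inside an annotated transcript were left out, so 193 remain. Capitals mark GGAAA, the core that NFAT factors bind, read on both strands.
Orai1, chr5:123014824-123015073, plus strand: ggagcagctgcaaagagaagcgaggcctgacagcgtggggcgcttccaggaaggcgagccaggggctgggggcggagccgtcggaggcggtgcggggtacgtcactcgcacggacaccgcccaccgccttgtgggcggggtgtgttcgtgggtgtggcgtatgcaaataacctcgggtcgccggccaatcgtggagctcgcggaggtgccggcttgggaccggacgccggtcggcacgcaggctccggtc
Kcna3, chr3:107035912-107036161, plus strand: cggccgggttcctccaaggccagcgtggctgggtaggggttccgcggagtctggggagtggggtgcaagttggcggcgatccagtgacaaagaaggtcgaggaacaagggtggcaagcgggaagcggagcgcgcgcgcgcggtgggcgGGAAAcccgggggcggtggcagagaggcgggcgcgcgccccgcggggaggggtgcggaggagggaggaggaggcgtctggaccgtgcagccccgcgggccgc
Kcnn4, chr7:24370013-24370262, plus strand: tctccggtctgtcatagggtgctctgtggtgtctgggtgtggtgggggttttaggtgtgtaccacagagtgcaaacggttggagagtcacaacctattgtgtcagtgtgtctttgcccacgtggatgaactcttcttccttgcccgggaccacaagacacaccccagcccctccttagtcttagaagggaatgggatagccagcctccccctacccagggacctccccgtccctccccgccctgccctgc
Orai2, chr5:136170714-136170906, minus strand: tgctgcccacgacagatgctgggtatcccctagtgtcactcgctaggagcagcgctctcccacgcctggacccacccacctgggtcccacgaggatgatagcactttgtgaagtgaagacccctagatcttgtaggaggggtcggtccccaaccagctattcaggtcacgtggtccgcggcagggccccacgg
The printed stretch of Kcna3 had 1 GGAAA and the other 3 had none, but the whole 250-base window of Orai2 also had 1, in the 57 bases not printed, and 55.6% of the 32851 promoter windows in the RefSeq table held at least 1 in 250 bases. None of the 4 whole windows held TGANTCA, the site of AP-1 factors that act with NFAT, which was present in 6.75% of windows. The GC content was 70.8% for Orai1, 74.4% for Kcna3, 58.8% for Kcnn4 and 62.2% for Orai2, above the median of 52.4% over all windows. A match of these letters describes the window and does not show a bound site. The table held a window for 8 of the 10 genes.

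Levels are given as FPKM, fragment numbers scaled to transcript length and to the fragments mapped in the library, summed over the transcripts of a gene, so that genes can be compared per length. Differences are differences of group means of log2(FPKM + 1), which understate the change of low genes. A gene was called when limma gave it a fold of 2 or more on that scale and a p no higher than 0.05 before adjustment, and the Benjamini-Hochberg adjusted p over all 14991 genes tested stands beside it. All 10 genes passed the filter of a mean of at least 1 FPKM. Coverage on transcripts, the only measure of depth in the files used, came to 64.4 to 172 Mb in the Unstimulated and Control libraries and to 227 and 259 Mb in the SMF libraries, so low genes were measured least well in the first 4. Protein-coding transcripts took 34.0 to 37.2% of the FPKM in the Unstimulated and Control libraries against 53.4 and 54.4% in SMF. The file headers name folders dated 2017 that each held 1 Unstimulated and 1 Control library, and a folder dated 2018 that held both SMF libraries. The magnetic field and the folder therefore cannot be told apart, whereas Control and Unstimulated can be compared within a folder. The cells carried their label: Cd3d, Cd3e, Cd3g, Cd8a and Cd8b1 summed to 521 and 632 FPKM in Unstimulated, 271 and 441 in Control and 629 and 748 in SMF.

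Other cell types were present in the Unstimulated libraries, which bears on every gene that was higher there. The 4 B cell markers Cd79a, Cd79b, Ms4a1 and Pax5 summed to 91.7 and 109 FPKM in Unstimulated, with all 4 above 0. In Control they summed to 7.78 and 23.3 FPKM, and in SMF to 2.43 and 4.50 FPKM with Ms4a1 and Pax5 listed at 0. The 7 myeloid markers summed to 140 and 161 FPKM in Unstimulated against 47.0 to 53.8 in the stimulated libraries, where Lyz2, the lysozyme of macrophages, was listed at 0 after 42.4 and 74.0 FPKM. All that stayed in Control was Csf1r, at 47.0 and 53.8 FPKM. In SMF most was Csf1r, at 41.1 and 50.4 FPKM, with Cd68 at 6.41 and 0.892 and Itgam at 0 and 0.18. The 2 natural killer (NK) cell markers Ncr1 and Klrb1c summed to 7.66 and 13.8 FPKM in Unstimulated and were listed at 0 in the stimulated libraries. Erythroid markers, largely Alas2, summed to 18.3 and 21.8 FPKM in Unstimulated, 5.21 and 7.16 in Control, and 1.51 and 10.1 in SMF. In bulk RNA, fewer cells of a type and less RNA per cell cannot be told apart.

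Between Control and Unstimulated, 5 of the 10 genes were called. Orai1, Stim2 and Kcnn4 were higher in Control than in Unstimulated, and Orai2 and Itpr3 were lower. Over all genes tested, 12.3% were called higher and 12.6% lower in this comparison, so the members' counts of 3 and 2 in 10 are to be read against those shares. The median difference of the 10 genes was 0.52, and that of all genes -0.046. With stimulation in the magnetic field, Orai1, Kcna3 and Kcnn4 were higher than in Unstimulated, and Orai2 and Itpr3 were lower, against 22.4% of all genes called higher and 14.8% lower. Libraries that did not overlap were common over all genes tested. Both Control libraries were above both Unstimulated ones for 24.8% of genes and below them for 26.6%. For SMF the shares were 39.7 and 26%. Both comparisons share the Unstimulated libraries, so their likeness is not independent.

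**Figure D1:**
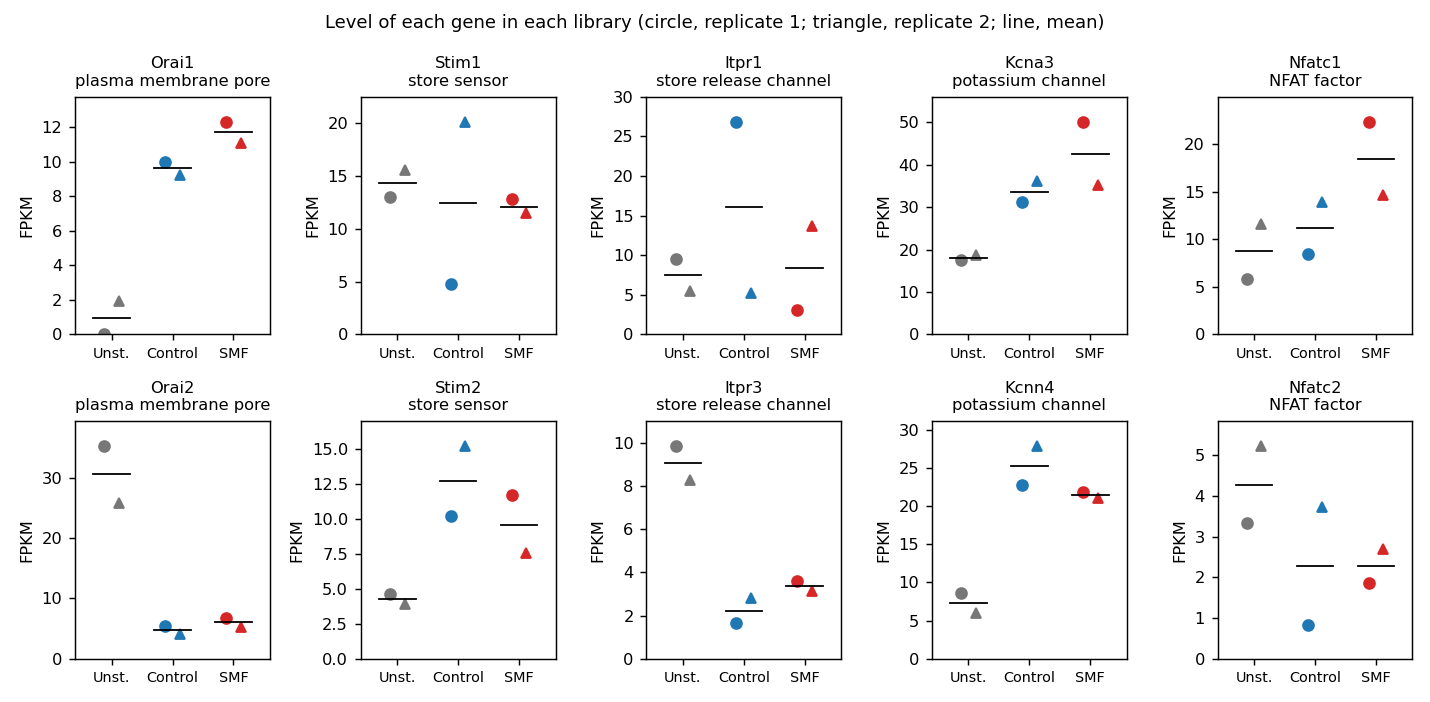
FPKM of the 10 genes (y axis, linear, from 0) in the 2 libraries of each group (x axis: Unst., Unstimulated), with a circle for replicate 1, a triangle for replicate 2 and a line at the mean. Orai1, Stim2, Kcna3 and Kcnn4 were above both Unstimulated libraries in all 4 stimulated libraries, and Orai2 and Itpr3 were below them. Over all genes tested, 24.8% were so placed above Unstimulated in Control and 39.7% in SMF. The shares placed below were 26.6 and 26%. The 2 Control libraries of Stim1 and of Itpr1 lay far apart.

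Orai1 encodes the pore of the calcium release-activated channel (chr5:123015074-123030456, plus strand). It was listed at 0 and 1.93 FPKM in Unstimulated, 10 and 9.24 in Control, and 12.3 and 11.1 in SMF. The Unstimulated libraries were the lowest and did not overlap with either stimulated group. The difference was 2.63 ± 0.62 (SE) for Control (adjusted p = 0.0539 in limma) and 2.89 ± 0.62 for SMF (adjusted p = 0.023). Its size depended on the Unstimulated libraries: it was 1.86 and 2.11 without replicate 1, 3.41 and 3.66 without replicate 2, and 4.43 and 4.71 with 0.1 FPKM added in place of 1, and it was called in each case. Within the folders, Control exceeded Unstimulated by 3.46 and 1.80. The gene rested on different transcripts in different libraries, however. The protein-coding ENSMUST00000121652.7 carried 1.93 FPKM in Unstimulated replicate 2, 10 and 8.96 in Control and 11.1 in SMF replicate 2, but SMF replicate 1 had its whole 12.3 FPKM on ENSMUST00000152213.2, a processed transcript with no coding bases in GENCODE M21. With protein-coding transcripts only, an alternative chosen after seeing the data, the difference was 2.61 for Control (adjusted p = 0.236 in limma) and 1.02 for SMF (adjusted p = 0.552), and neither was called.

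Orai2, the second pore gene (chr5:136147459-136170713, minus strand), ran the other way. Its protein is known to join Orai1 in mixed channels and to lower their current. Orai2 was at 35.2 and 25.9 FPKM in Unstimulated, 5.51 and 4.11 in Control, and 6.81 and 5.34 in SMF, so that all 4 stimulated libraries were below both Unstimulated ones. It fell by 2.44 ± 0.41 on the log2 scale in Control (adjusted p = 0.0241 in limma) and by 2.15 ± 0.41 in SMF (adjusted p = 0.0168), and by 2.48 and 2.40 within the folders. B cell, myeloid, NK and erythroid markers fell between the same groups, as given above, and their part in the fall of Orai2 was not tested. In level, Orai2 stood above 84.7 and 80.8% of the genes tested in Unstimulated and above 39.3 to 48.0% in the stimulated libraries, whereas Orai1 moved from at most 22.5% to 57.7 to 61.4%.

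The annotated transcript of Orai2 differed between the groups too. ENSMUST00000041048.5, with 3 exons, held 27.8 and 17.6 FPKM in Unstimulated and was listed at 0 in all 4 stimulated libraries. ENSMUST00000196454.4 held 1.87 and 0.000213 FPKM in Unstimulated, 5.51 and 4.11 in Control, and 6.81 and 5.34 in SMF, which was all of the gene's FPKM after stimulation. It adds 2 exons between the first exon and the shared coding exons, of 109 bases (chr5:136168366-136168474) and 63 bases (chr5:136167825-136167887), and in GENCODE M21 the second of these holds 29 coding bases while the first exon of both transcripts is untranslated. A retained intron transcript that spans this stretch, ENSMUST00000198268.1, held 5.51 and 5.99 FPKM in Unstimulated and was listed at 0 in the stimulated libraries. A further protein-coding transcript, ENSMUST00000197052.1, also has the 109-base exon. It held 2.30 FPKM in Unstimulated replicate 2 and was listed at 0 in every other library. These are values per annotated transcript as StringTie divided the reads, with no test.

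**Figure D2:**
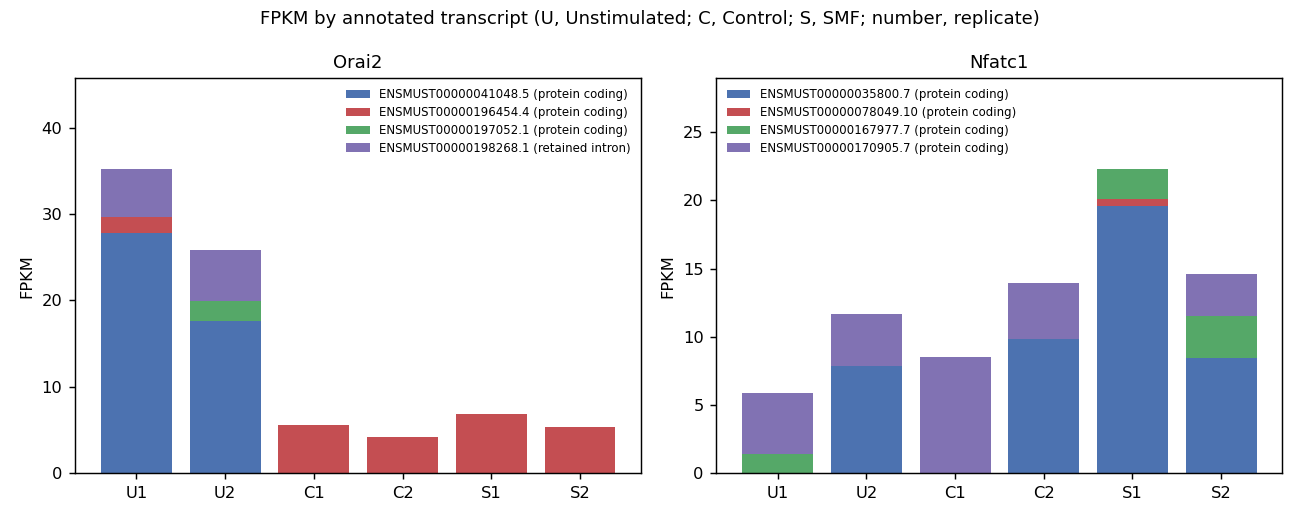
FPKM of Orai2 and Nfatc1 (y axis, from 0) divided among annotated transcripts in each library (x axis: U, Unstimulated, C, Control, S, SMF, with the replicate number). For Orai2, the transcript with 27.8 and 17.6 FPKM in Unstimulated is at 0 in the 4 stimulated libraries, while for Nfatc1 the mix varies between the libraries of a group.

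Itpr1 and Itpr3 encode receptors that release calcium from the endoplasmic reticulum. Itpr3 has 1 annotated transcript (chr17:27057304-27122223, plus strand). It was at 9.82 and 8.25 FPKM in Unstimulated, 1.64 and 2.81 in Control, and 3.61 and 3.13 in SMF, the Unstimulated libraries being the highest. It fell by 1.66 ± 0.48 in Control (adjusted p = 0.0875 in limma), and by 2.04 and 1.28 within the folders. In SMF it fell by 1.20 ± 0.48 (adjusted p = 0.12 in limma). This call lay close to the p threshold and was lost without any 1 of the 4 libraries, with falls of 1.08 to 1.31. B cell, myeloid, NK and erythroid markers fell with it, and their part was not tested. A stretch of 142 exon bases faces the antisense gene Itpr3os.

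Itpr1 (chr6:108213096-108551109, plus strand) could not be ordered. It was at 9.56 and 5.46 FPKM in Unstimulated, 26.8 and 5.29 in Control, and 3.12 and 13.7 in SMF, with overlap between all groups. A short fragment held much of the high values. ENSMUST00000205005.1, a retained intron transcript of 486 bases (chr6:108518732-108519672), held 7.85 FPKM in Unstimulated replicate 1, 21.7 in Control replicate 1 and 5.73 in SMF replicate 2, and was listed at 0 in the other 3 libraries. In the SMF library this was 41.7% of the gene's FPKM, less than in the other 2. The full-length ENSMUST00000032192.8, of 9870 bases and 62 exons, held 1.71 and 5.01 FPKM in Unstimulated, 5.19 and 4.76 in Control, and 2.46 and 5.18 in SMF. Itpr1 differed by 0.68 ± 0.91 between Control and Unstimulated, with a 95% confidence interval from -1.53 to 2.89, so that changes of more than 2-fold either way remained within reach of the error.

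Stim1 and Stim2 encode the store sensors, Stim2 being known to respond to smaller losses of stored calcium than Stim1. Stim2 (chr5:53998499-54121057, plus strand) was at 4.65 and 3.90 FPKM in Unstimulated, 10.2 and 15.2 in Control, and 11.7 and 7.54 in SMF. All 4 stimulated libraries were above both Unstimulated ones. The difference was 1.35 ± 0.45 for Control (adjusted p = 0.118 in limma) and 0.98 ± 0.45 for SMF, the latter not called. Without Control replicate 2, or without either Unstimulated library, the Control difference was 1.09 to 1.46 and was not called. A 652-base retained intron transcript, ENSMUST00000202342.1, took 86.8% of the gene's FPKM in Unstimulated replicate 1, none in Unstimulated replicate 2, and 41.6 and 69.6% in Control. On protein-coding transcripts Stim2 was at 0.614 and 3.90 FPKM in Unstimulated, 5.94 and 4.63 in Control, and 9.30 and 6.19 in SMF. On that scale the Control difference of 1.15 was not called (adjusted p = 0.309 in limma) and the SMF difference of 1.61 was (adjusted p = 0.108). On that scale the median of all genes in SMF against Unstimulated was 0.72, with 2921 of 9559 genes called higher, against 0.06 in Control with 1351.

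Stim1 (chr7:102267806-102437319, plus strand) was at 13.0 and 15.6 FPKM in Unstimulated, 4.74 and 20.1 in Control, and 12.8 and 11.5 in SMF. The Control libraries were the lowest and the highest of all 6. A retained intron transcript of 483 bases, ENSMUST00000210761.1, held 10.5 FPKM in Control replicate 2 and was listed at 0 in Control replicate 1. The differences from Unstimulated were -0.47 for Control and -0.21 for SMF, neither of which was called. Without Control replicate 2 that of Control was -1.41 and was called, while the within-folder values were -1.28 and 0.35.

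**Figure D3:**
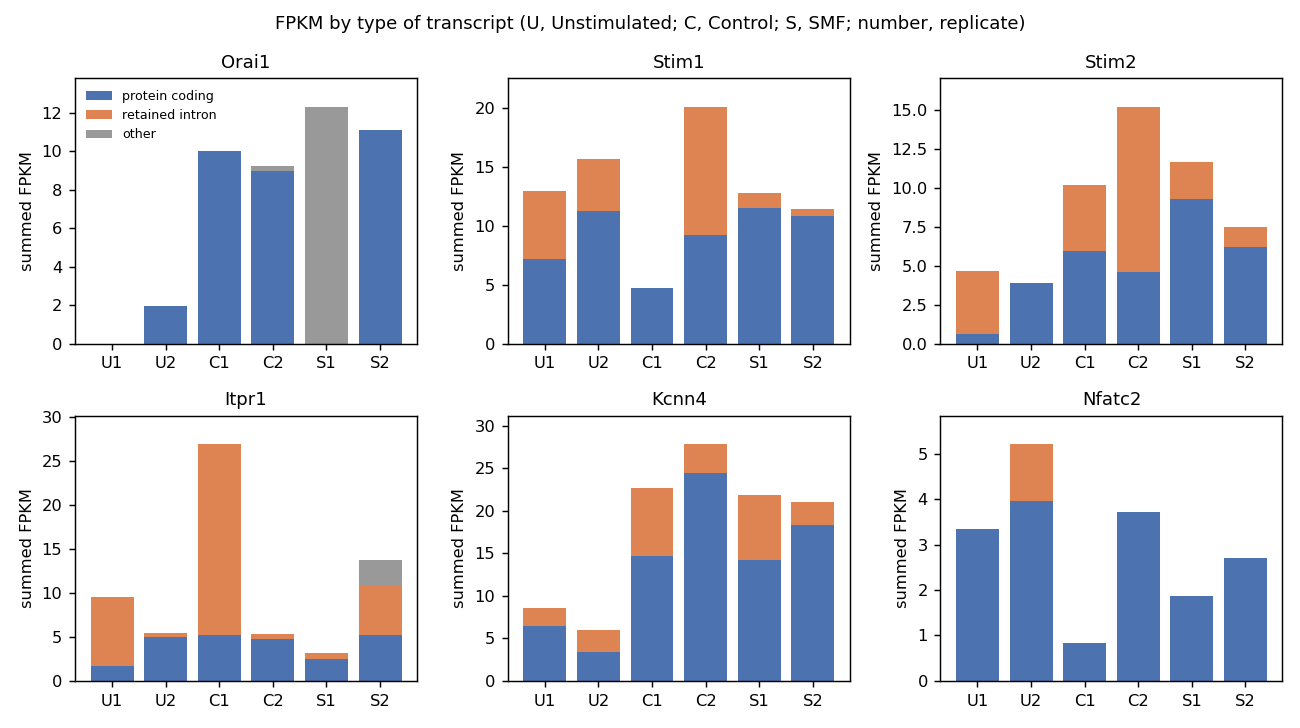
FPKM of 6 of the genes (y axis, from 0) in each library (x axis: U, Unstimulated, C, Control, S, SMF, with the replicate number), divided by transcript type in GENCODE M21: protein coding, retained intron, or other. The tall bars of Itpr1 in Control replicate 1 and Stim1 in Control replicate 2 are mostly retained intron, at 80.7 and 54.4% of the gene's FPKM, and that of Orai1 in SMF replicate 1 is all of another noncoding type.

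Both potassium channels were higher after stimulation. Kcna3, a voltage-gated channel with a single exon (chr3:107036169-107038070, plus strand), was at 17.6 and 18.7 FPKM in Unstimulated, 31.1 and 36.1 in Control, and 50.0 and 35.2 in SMF. It had the highest mean of the 10 genes in both stimulated groups. The difference was 1.17 ± 0.32 in SMF (adjusted p = 0.0468 in limma) and 0.85 ± 0.32 in Control, where p passed its threshold but the fold was below 2. With libraries shifted to one median the SMF difference was 0.91, also below the fold threshold, and without SMF replicate 1 it was 0.92.

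Kcnn4, a channel opened by calcium through bound calmodulin (chr7:24370263-24386690, plus strand), was at 8.63 and 6.01 FPKM in Unstimulated, 22.7 and 27.8 in Control, and 21.9 and 21 in SMF. All 4 stimulated libraries were above both Unstimulated ones. The difference was 1.67 ± 0.36 in Control (adjusted p = 0.0436 in limma) and 1.45 ± 0.36 in SMF (adjusted p = 0.0349), and 1.3 and 2.04 within the folders. On protein-coding transcripts the differences were 1.81 and 1.58, and both were called (adjusted p = 0.0677 and 0.0481 in limma). Transcripts that start inside the gene and retain introns held 12.1 to 44.1% of its FPKM in the 6 libraries, with no separation of the groups.

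Nfatc1 and Nfatc2 were called in no comparison. Nfatc1, which activated T cells are known to induce, was at 5.87 and 11.6 FPKM in Unstimulated, 8.49 and 13.9 in Control, and 22.3 and 14.6 in SMF. The SMF libraries were the highest, at a difference of 1.03 ± 0.50 from Unstimulated (95% confidence interval -0.17 to 2.24, adjusted p = 0.179 in limma). Among its 4 annotated transcripts, all protein coding, ENSMUST00000035800.7 has the nearer 3′ end, with 8 exons where the others have 10. It held 67.6, 70.4, 88.1 and 57.7% of the gene's FPKM in Unstimulated replicate 2, Control replicate 2 and both SMF libraries, and was listed at 0 in Unstimulated and Control replicate 1, the 2 libraries with the least coverage. Nfatc2, the NFAT factor that resting T cells are known to hold ready in the cytoplasm, was at 3.34 and 5.21 FPKM in Unstimulated, 0.833 and 3.72 in Control, and 1.86 and 2.70 in SMF. Its differences from Unstimulated were -0.82 ± 0.65 and -0.67 ± 0.65, within the error.

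**Figure D4:**
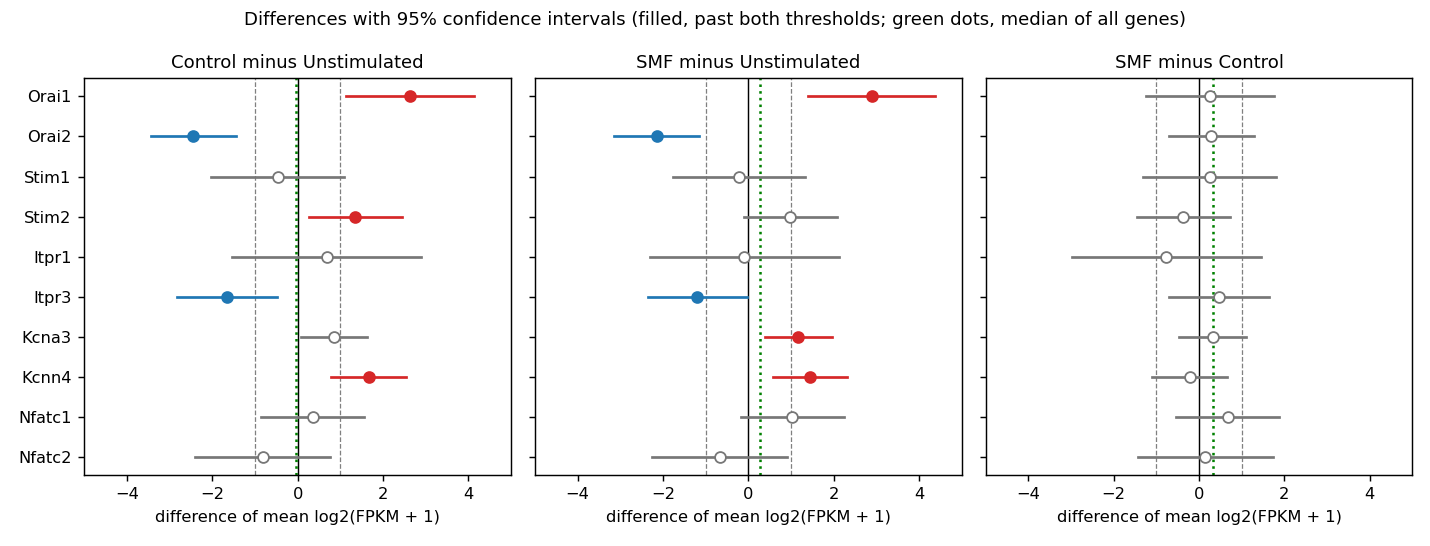
Difference of group means of log2(FPKM + 1) (x axis) with its 95% confidence interval for the 10 genes (y axis) in the 3 comparisons. Filled points are called, dashed lines mark a 2-fold difference, and the dotted line marks the median of all genes tested (-0.046, 0.268 and 0.319). No gene is called in SMF minus Control.

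SMF cells were compared with Control cells to ask what the field added to stimulation. None of the 10 genes was called in limma, against 12.5% of all genes called higher and 5.72% lower, and none had an unadjusted p under 0.05. The median of all genes was itself shifted by 0.319, and the 10 genes had a median of 0.25. After the libraries were shifted to one median, the calls over all genes went from 1868 higher and 857 lower to 877 higher and 1441 lower. The intervals cover the spread between these libraries in summed FPKM, and not the folder, which cannot be told apart from the field. They ran from -0.47 to 1.10 for Kcna3, from -1.09 to 0.65 for Kcnn4 and from -0.53 to 1.88 for Nfatc1, and from -2.98 to 1.45 for Itpr1, whose libraries were most apart. The groups did not overlap for 4 genes. Orai1, Itpr3 and Nfatc1 were higher in both SMF libraries and Kcnn4 lower, and over all genes tested 37.4 and 17.4% were so placed. The differences were 0.46 for Itpr3, 0.68 for Nfatc1 and -0.22 for Kcnn4, and that of Orai1 was 0.25, which was -0.09 with libraries shifted to one median and -1.59 with protein-coding transcripts only. Stim1 was called higher by 1.19 only without Control replicate 2.

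Ratios of related genes within a library do not depend on how that library was scaled. The ratio of Orai1 to Orai2 was 0.0745 in Unstimulated replicate 2, with Orai1 listed at 0 in replicate 1, and 1.82 and 2.25 in Control and 1.80 and 2.08 in SMF. Summed over all transcripts, Orai2 was the higher of the pore genes in Unstimulated and Orai1 in the stimulated libraries. In SMF replicate 1 this rests on the noncoding Orai1 transcript: on protein-coding transcripts Orai1 was at 0 there and Orai2 at 6.81 FPKM. The ratio of Stim1 to Stim2 was 2.79 and 4 in Unstimulated, 0.466 and 1.32 in Control, and 1.09 and 1.52 in SMF, with Unstimulated above both. Nfatc1 exceeded Nfatc2 by 1.76 and 2.24 times in Unstimulated, 10.2 and 3.75 times in Control, and 12 and 5.4 times in SMF.

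Kcna3 was above Kcnn4 in every library, by 2.04 and 3.11 times in Unstimulated, 1.37 and 1.3 times in Control, and 2.29 and 1.68 times in SMF. Summed over all transcripts, this was the only one of the 5 ratios in which SMF and Control did not overlap, with a difference of 0.55 on the log2 scale. On protein-coding transcripts Kcnn4 was at 14.7 and 24.5 FPKM in Control and 14.2 and 18.4 in SMF, while Kcna3 kept its values. The ratios of SMF and Control overlapped on that scale. The ratio of Itpr1 to Itpr3 ran from 0.662 to 16.4 with no order that held across the groups' libraries other than Control above Unstimulated. The exact two-sided permutation test of 2 against 2 libraries cannot give a p below 0.333, and every pair of groups that did not overlap and had 2 values each gave that value, so no ratio could pass a threshold of 0.05.

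**Figure D5:**
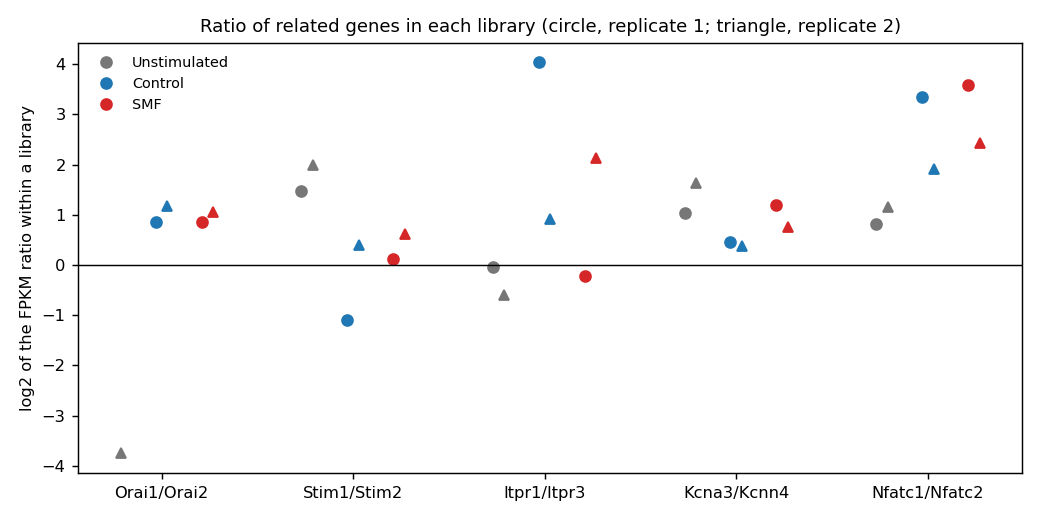
Log2 of the ratio of 2 related genes' FPKM (y axis) in each library for the 5 pairs (x axis), with a circle for replicate 1, a triangle for replicate 2 and colours for the groups. Orai1 to Orai2 lies below 0 in the Unstimulated library that has a value and above 0 in the 4 stimulated libraries. Unstimulated replicate 1 is not drawn for that pair because Orai1 is listed at 0.

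Around these genes, 64 others of the pathway were listed by role, and 54 passed the filter. In Control against Unstimulated, 9 of the 54 were called higher and 8 lower, with a median difference of -0.06, beside 12.3 and 12.6% called and a median of -0.05 over all genes. In SMF against Unstimulated 17 were higher and 5 lower, with a median of 0.55, beside 22.4 and 14.8% and a median of 0.27. In SMF against Control 8 were higher and none lower, with a median of 0.42, beside 12.5 and 5.72% and a median of 0.32. These counts were not tested against those shares, and nothing particular to the pathway is read from them.

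Genes that NFAT is known to bind or induce made up the longest list. Of 11 tested, 7 were higher and 1 lower in Control, and 8 were higher and 1 lower in SMF, with medians of 2.14 and 3.64, where 12.3 and 22.4% of all genes were called higher. This list was chosen with earlier results of these data known. No enrichment was tested, and nothing about NFAT activity is read from the counts. Il2ra, the interleukin-2 receptor alpha chain, was at 0.708 and 0.894 FPKM in Unstimulated, 52.4 and 59.2 in Control, and 86.5 and 113 in SMF. Tnfrsf9 (4-1BB), a costimulatory receptor, was listed at 0 and 1.90 FPKM in Unstimulated and was at 158 and 156 in Control and 220 and 193 in SMF. Irf4, a transcription factor of effector differentiation, was at 3.79 and 3.12, then 38.2 and 39.3, then 76.5 and 74.9 FPKM. Pdcd1 (PD-1) was listed at 0 in both Unstimulated libraries and was at 14.2 and 17.4 FPKM in Control and 30.9 and 21.7 in SMF. Ifng (interferon gamma) and Egr2 were called higher in both stimulated groups, Fasl in Control, and Tnf and Egr3 in SMF. Between SMF and Control themselves, Tnf and Egr3 were called and Fasl was not. Cd40lg, the ligand by which T cells help B cells, was lower in both, listed at 0 in all 4 stimulated libraries after 6.21 and 2.33 FPKM. Cd4, the marker of helper T cells, was at 2.05 and 4.68 FPKM in Unstimulated, listed at 0 and at 2.18 in Control, and listed at 0 in both SMF libraries, and its part was not tested. Foxp3, the other marker of CD4 T cells, was above 0 in all 6. Il2 was listed at 0 in all 6 libraries.

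Among the other components of calcium entry and store filling, the calls with Control were mostly downward. Over all genes, 12.6% were called lower and 12.3% higher there. Itpr2, the third store release channel, was at 6.5 and 5.95 FPKM in Unstimulated against 2.13 and 1.74 in Control, and Cracr2a, a cytoplasmic regulator of the Orai1 and Stim1 complex, at 8.52 and 4.84 against 1.61 and 0.644. Both were also called lower in SMF, as was Slc8b1, the mitochondrial sodium-calcium exchanger, which was at 3.72 and 4.80 FPKM in Unstimulated and at most 0.824 afterwards. Atp2a3, a pump that refills the store, was at 29.4 and 24.7 FPKM in Unstimulated and 11.4 and 11 in Control. These 4 genes were higher in the libraries with more of the B cell, myeloid, NK and erythroid markers, whose part was not tested. In the other direction, Smdt1, a subunit of the mitochondrial calcium uniporter, was at 2.09 and 7.12 FPKM in Unstimulated, 31.7 and 16.2 in Control, and 24.2 and 13.8 in SMF. Mcu, the pore of that uniporter, was called higher in SMF, at 7.49 and 4.56 FPKM against 0 and 2.10, but not in Control. For Mcu, SMF and Control were not called apart. Atp2a2, a store pump given below, was called higher in SMF than in Unstimulated, by 1.83 (adjusted p = 0.0162 in limma), but not in Control.

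Of the 7 genes for calmodulin and calcineurin, none was called in Control, where 12.3% of all genes were called higher and 12.6% lower. Calm2 and Calm3, which encode calmodulin, were higher in SMF than in Unstimulated by 1.51 and 1.48, where 22.4% of all genes were called higher. Between SMF and Control they differed by 0.85 and 0.71 and were not called. Dyrk2, a kinase that primes NFAT for export from the nucleus, had the clearest fall among the kinases. It was at 23.2 and 20.5 FPKM in Unstimulated, 3.74 and 3.13 in Control, and 3.23 and 4.71 in SMF (adjusted p = 0.0278 and 0.0172 in limma). Csnk1a1, a kinase of the same list, ran the other way, at 21.2 and 24.3, then 37.4 and 35.6, then 54.1 and 75.3 FPKM. Csnk1a1 was called higher than Unstimulated in SMF (adjusted p = 0.0222 in limma) but not in Control. Nfatc3, another calcium-regulated NFAT factor, was at 21.5 and 18.5 FPKM in Unstimulated and 10.5 and 8.22 in Control. This fall of 1.02 was called. Nfat5, an NFAT relative given below, was called higher in SMF than in Unstimulated, by 1.8. Kcnk5, a further potassium channel of activated T cells, was at 1.37 FPKM and listed at 0 in Unstimulated, at 5.92 and 5.67 in Control, and at 8.91 and 11.2 in SMF. P2rx4, a calcium-permeable channel opened by ATP, was called lower in Control, at 8.57 and 7.68 against 19.4 and 17.0 FPKM. None of the 5 tested inhibitors of calcineurin and NFAT, among them Rcan1, was called in any comparison in limma. Over all genes, 12.5% were called higher and 5.72% lower in SMF against Control. Nothing particular to these short lists is read from their counts.

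In SMF against Control, the 8 calls of 54 genes were Saraf, Atp2a2, Nfat5, Trpm7, Trpv2, P2rx4, Tnf and Egr3, all higher, where 12.5% of all genes were called higher, and none had an adjusted p under 0.05. Saraf, which switches store-operated entry off, was at 15.0 and 46.5 FPKM in Control and 79.8 and 71.8 in SMF. Atp2a2 (SERCA2), the pump that refills the store, was at 23.9 and 24.6 against 82.6 and 58.7 FPKM, and Nfat5, the NFAT relative that does not need calcineurin, at 9.05 and 10.6 against 29.8 and 29.2. The channels Trpm7 and Trpv2 were higher by 1.75 and 2, and P2rx4 by 1.03. Tnf was at 7.01 and 2.90 FPKM in Control and 21.5 and 23.9 in SMF, and Egr3 at 6.11 and 6.65 against 15.0 and 13.6. The count of 8 was 3 without SMF replicate 1 or without Control replicate 1, and 5 with libraries shifted to one median. The share of FPKM on protein-coding transcripts and the folder differ between the same groups. So did the summed CD8 T cell markers, at 271 and 441 FPKM in Control and 629 and 748 in SMF. B cell markers summed to 7.78 and 23.3 FPKM in Control and 2.43 and 4.50 in SMF. The part of each was not tested.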

How the data were processed

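RNA was measured in 6 libraries of mouse splenic CD8+ T cells, 2 a group, prepared with a stranded total RNA kit for small inputs (SMARTer Pico) and sequenced on an Illumina HiSeq instrument. The submitters' processing notes name Trimmomatic 0.36, HISAT2 and StringTie, and the build mm10. Per the file headers, the deposited transcript values were made by the authors with StringTie 1.3.5, limited to GENCODE M19 transcripts. The unit of these deposited values is FPKM, with no read counts. Groups came from the sample labels.

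FPKM was summed over the transcripts of a gene, and genes whose mean over all 6 libraries reached 1 FPKM were fitted together in limma 3.58.1 (R 4.3.3), with 3 groups, a variance trend and log2(FPKM + 1). Calls needed a fold of at least 2 and p of at most 0.05, the thresholds in the study's methods. Adjusted p-values are Benjamini-Hochberg over all 14991 genes tested. The script was tested on simulated data. Transcript types came from GENCODE M21. Within-library ratios were compared by an exact permutation test (scipy 1.17.1).

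The members, gene lists and tests were chosen with earlier results of these data known. Text names all 10 members, every called pathway gene up to 20 a comparison in order of the size of its difference, and the gene nearest in pattern to each member. Csnk1a1 was also named. Some genes of the lists are not reported here and were left out of the counts. A table of the whole series had 3 value columns that match no single sample and was not used here. Coverage per library sets the precision, and its error on single genes is unknown because fragment numbers are not given in the sources used here. Alternatives were another pseudocount, filters, one median, gene TPM, no trend, a replicate block, omission of each library, the 2 compared groups only and adjusted p.

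Whether replicate numbers pair the libraries was checked by the correlation of deviations from group means. It was 0.0963 for Control and Unstimulated, 0.0206 for Control and SMF, and 0.0301 for SMF and Unstimulated, and the limma fit did not treat them as pairs. Control and Unstimulated libraries of the same replicate number do share a folder, and were also compared within it. Both SMF libraries came from the same folder, so the replicate block is not a block by folder.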

Additional observations from a re-analysis of the deposited data

How the results depend on the processing

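Of the counts of called members, those lower in SMF than in Unstimulated moved from 2 to 1, the lost gene being Itpr3, with a pseudocount of 0.1, no filter, a mean of at least 5 FPKM (which removes Itpr3 from the test), gene TPM, the replicate block, an adjusted p of at most 0.05, and without each library in turn (1 to 1). In Control against Unstimulated, 1 rather than 3 was higher by adjusted p and with protein-coding transcripts only (chosen after seeing the data), and 1 rather than 2 was lower by adjusted p and with a mean of at least 5 FPKM. Without each library, 2 to 3 were higher there and 2 to 3 lower. In SMF against Control, 0 to 1 was higher. The replicate numbers were not treated as pairs, and the replicate block changed no other call of a member. For pathway genes, adjusted p gave 5 higher and 1 lower in Control against Unstimulated, 1 lower in SMF against Unstimulated and 0 higher in SMF against Control. The higher mean filter gave 4 and 1 lower against Unstimulated, one median 5 and 10, and protein-coding transcripts 5 in Control. In SMF against Control, 5 rather than 8 were higher with one median and with protein-coding transcripts. Without each library, 3 to 7 were higher and 0 to 1 lower in SMF against Control.

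Signs turned only for differences that were not called among all 6 libraries. With libraries shifted to one median, SMF minus Control was -0.09 for Orai1, -0.05 for Orai2, -0.09 for Stim1, -0.03 for Kcna3 and -0.20 for Nfatc2. With protein-coding transcripts only, it was -1.59 for Orai1 and 0.46 for Stim2, and SMF minus Unstimulated was 0.29 for Stim1 and 0.19 for Itpr1. Omitting each library in turn, Control minus Unstimulated ran from -1.41 to 0.47 for Stim1, from -0.39 to 1.75 for Itpr1 and from -0.09 to 0.79 for Nfatc1, positive for Stim1 and negative for Itpr1 without Control replicate 1, and negative for Nfatc1 without Unstimulated replicate 1. SMF minus Unstimulated ran from -1.01 to 0.83 for Itpr1, positive without Unstimulated replicate 1 (0.27) or SMF replicate 1. SMF minus Control ran from -0.69 to 1.19 for Stim1, from -1.84 to 0.31 for Itpr1 and from -0.54 to 0.83 for Nfatc2. Of these, Stim1 without Control replicate 2 was called in both comparisons that use Control. The causes were not tested. No ratio of related genes changed direction when 0.1 FPKM was added.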

Other observations

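For each of the 10 genes, the gene whose log2(FPKM + 1) followed it most closely over the 6 libraries was found among the 14991 genes tested. Pearson's r was 0.999 for Orai1 and Top2a, which encodes a topoisomerase of dividing cells, and 0.999 for Orai2 and Arhgef18. It was 0.995 for Stim2 and Mrs2, a magnesium channel of mitochondria, 0.996 for Itpr3 and Abi3, 0.997 for Kcna3 and Chtf18, a factor of DNA replication, and 0.999 for Kcnn4 and Gm12940. The values were 0.978 for Stim1 and Klhl7, 0.985 for Itpr1 and Gm7308, 0.992 for Nfatc1 and Eif3k, and 0.989 for Nfatc2 and Ltc4s. Each is the highest of 14991 values over 6 libraries that fall into 3 groups, and is given as a description.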
